A study of Mus musculus with 13 samples.

Results

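The STAT factors and SOCS inhibitors described here are 9 genes: the STAT genes Stat2, Stat3, Stat4, Stat5a, Stat5b and Stat6, and the SOCS genes Socs1, Socs2 and Socs3. They were chosen by name among the 18194 mouse genes that have at least 1 probe set annotated to them alone, and 23 probe sets belonged to them. Each gene was represented by its probe set with the highest mean over 13 arrays. A gene entered the tests if every array of some population showed it at 50 or more, which 8 of the 9 and 9372 other genes did, whereas Socs1 did not.

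STAT proteins are latent transcription factors that carry the signal of a cytokine receptor from the plasma membrane to the nucleus. Ligand binding activates the Janus kinases (JAKs) held by the receptor chains, which phosphorylate STATs so that they pair and bind DNA. SOCS proteins are induced by STATs and in turn block the kinases or the receptors, closing a negative feedback loop. In dendritic cells (DCs) the pathway is known for responses to type I interferon, for Flt3 ligand signalling in development and for GM-CSF signalling, and in lymphocytes for responses to IL-2, IL-4, IL-7, IL-12 and IL-15.

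RNA came from the spleens of untreated C57BL/6 mice and was read on Affymetrix Mouse Genome 430 2.0 arrays. B cells had 3 arrays, and plasmacytoid DCs (pDCs), conventional CD8α DCs (CD8α cDCs), conventional CD11b DCs (CD11b cDCs), CD8 T cells and NK cells had 2 each. The DC subsets were sorted as lineage-negative CD11c-positive cells, pDCs by high staining with the 120G8 antibody and the cDC subsets by CD8α or CD11b, and NK cells were sorted as NK1.1+ TCRβ- cells. Cells were pooled from 10 to 15 mice for a DC array, from 6 to 10 mice for an NK cell array and from 3 and 2 mice for B cell replicates 1 and 2, while B cell replicate 3 and the CD8 T cell arrays represent 1 mouse each. The labels give females of 6 to 8 weeks for CD8α cDC replicate 1 and both CD8 T cell arrays, males of 6 weeks for B cell replicates 2 and 3, and neither age nor sex for the others. The labels call the B cells of replicates 2 and 3 follicular, and those of replicate 1 only B lymphocytes.

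The arrays differed in ways that touch the results. No scan period held both DC and lymphocyte arrays: the DC arrays were scanned on 2 days of the first year, NK and B cell arrays on 2 days of the second, and CD8 T cell arrays on 1 day of the third, so that scan period cannot be told apart from DC against lymphocyte. The ratio of 3′ to 5′ GAPDH signal, which grows as RNA is degraded or amplified in shortened form, was 11.2 and 23.9 on the NK cell arrays and 3.46 to 6.30 on the others. Signals of Xist and of Y-linked genes went against the labelled sex of 3 arrays: B cell replicate 2 is labelled male but had Xist signal and no Y-linked signal, and both CD8 T cell arrays are labelled female but had Y-linked signal and no Xist signal. All 6 DC arrays had Xist signal alone, and 6 of 7 lymphocyte arrays had Y-linked signal alone, so the sex of the mice was also nearly the same split as DC against lymphocyte. The defining markers of each sort were high where they should be, for instance a summed signal of 5 pDC markers of 18637 to 21066 in pDCs and of at most 1728 elsewhere. Of the 4 CD8α cDC markers, Cd8a itself was also at 781 and 1047 in pDCs and at 2400 to 2629 in CD8 T cells. Itgae (1095 and 1028) and Ly75 (227 and 257) were higher in CD8 T cells than in CD8α cDCs (869 and 903, 174 and 218). The summed signal of the 4 was 3726 to 3922 in CD8 T cells and 4670 to 4802 in CD8α cDCs. Only Xcr1 set these 2 populations apart (4.92 and 7.88 against 673 and 633). Cd8b1, listed as a CD8 T cell marker, was at 1295 and 1088 in pDCs.

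Before the levels, the promoters of the members with a string match to a STAT response element are shown. Activated STAT pairs and STAT2 complexes bind such elements. The sequences are RefSeq promoters of build GRCm38.p6, each of 250 bases before and 50 bases from the transcription start on, and 8 of the 9 members had 1 or more (11 in all). The elements searched on both strands were the gamma-activated sequence TTCNNNGAA, its variant with 4 central bases TTCNNNNGAA, and a core of the interferon-stimulated response element, GAAANNGAAA. They were found in 8.3%, 6.95% and 3.44% of 32851 promoters of this length. All matches in members are in capitals in the following 4 promoters.
Stat2 (chr10:128270248-128270547, plus strand): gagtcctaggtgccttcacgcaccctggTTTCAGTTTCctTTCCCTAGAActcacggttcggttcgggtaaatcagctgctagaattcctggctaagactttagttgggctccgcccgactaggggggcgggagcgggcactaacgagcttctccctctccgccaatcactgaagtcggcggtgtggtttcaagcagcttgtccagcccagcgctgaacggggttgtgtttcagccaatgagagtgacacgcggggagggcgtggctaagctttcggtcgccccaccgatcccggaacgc
Stat4, second start (chr1:52007990-52008289, plus strand): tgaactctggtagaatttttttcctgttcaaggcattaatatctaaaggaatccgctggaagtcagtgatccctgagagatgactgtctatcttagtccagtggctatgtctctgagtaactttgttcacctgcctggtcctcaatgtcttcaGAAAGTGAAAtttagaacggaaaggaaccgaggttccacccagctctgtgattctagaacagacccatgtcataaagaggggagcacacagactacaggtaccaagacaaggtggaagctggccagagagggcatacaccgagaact
Socs1 (chr16:10785487-10785786, minus strand): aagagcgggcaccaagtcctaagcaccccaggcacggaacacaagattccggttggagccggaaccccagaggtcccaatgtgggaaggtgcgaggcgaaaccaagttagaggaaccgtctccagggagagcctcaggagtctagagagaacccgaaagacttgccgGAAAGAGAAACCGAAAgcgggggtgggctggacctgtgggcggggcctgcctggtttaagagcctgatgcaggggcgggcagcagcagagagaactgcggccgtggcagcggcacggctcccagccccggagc
Socs3 (chr11:117969317-117969616, minus strand): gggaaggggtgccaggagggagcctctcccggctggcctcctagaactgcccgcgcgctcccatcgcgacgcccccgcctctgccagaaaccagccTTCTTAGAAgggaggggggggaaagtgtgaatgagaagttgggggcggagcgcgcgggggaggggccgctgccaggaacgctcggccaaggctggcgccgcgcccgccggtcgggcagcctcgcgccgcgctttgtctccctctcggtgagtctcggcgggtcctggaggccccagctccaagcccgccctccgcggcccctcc
Stat2 holds an interferon-stimulated core, read on the opposite strand, at -222 from the start and a gamma-activated variant at -210. The second Stat4 start has an interferon-stimulated core at -97, and Socs1 has 2 overlapping ones at -83 and -77. Socs3 has a gamma-activated sequence at -154. A match is a string of letters and not a shown binding site. Cish, the SOCS family gene described further on, has gamma-activated sequences at 1 and 12, just past its start. Stat5b, Stat5a and Stat3 are direct neighbours on the same chromosome.

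Over the 6 populations, 7 of the 8 members tested differed by limma's F test at an adjusted p under 0.05, Stat5a being the exception, against 82.8% of all genes tested. In such bulk RNA, a lower level and fewer cells that express the gene cannot be told apart. The members differed widely in how far their population means were spread. Stat4 spanned 6.60 on the log2 scale, wider than 98.6% of the genes tested, and Socs3 4.89, wider than 94.3%. Stat2 spanned 3.08 and Socs2 2.88, whereas Stat3 (1.39), Stat5b (1.24), Stat6 (1.19) and Stat5a (0.83) lay below the median range of 1.52. Of the 120 pairwise comparisons of a member between 2 populations, 56 were called, against 41.4% of all gene-by-pair comparisons: 12 of 15 for Socs3, 11 each for Stat4 and Socs2, 8 for Stat2, 6 for Stat5b, 5 for Stat6, 2 for Stat3 and 1 for Stat5a.

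**Figure D1:**
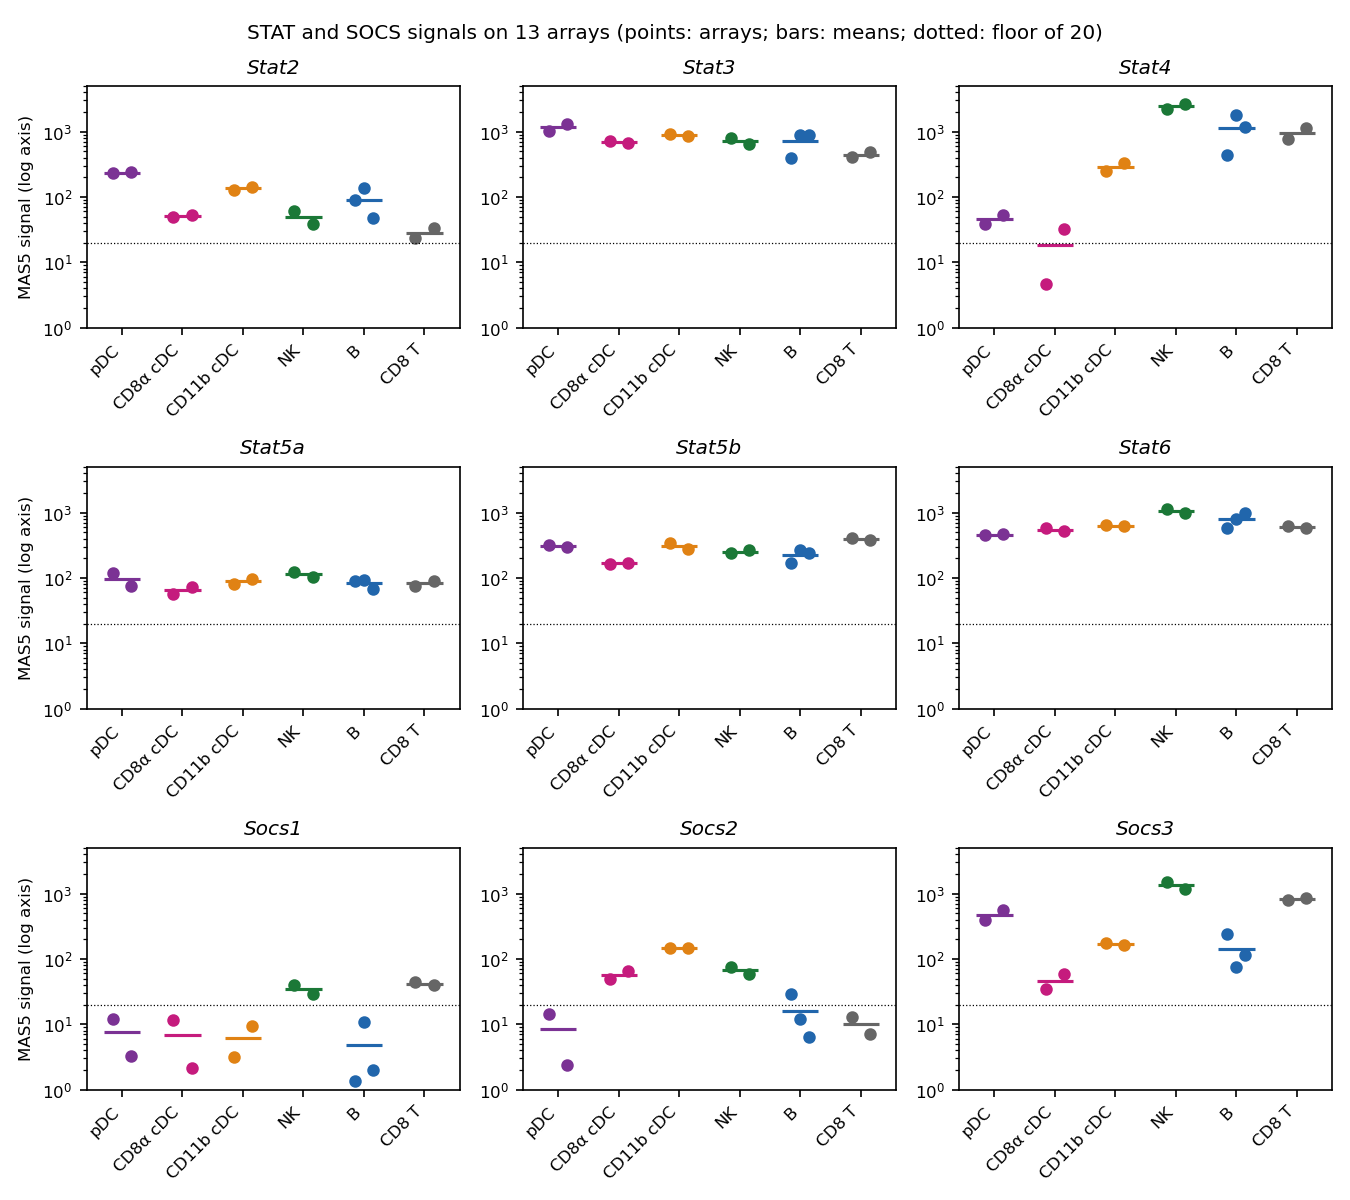
Deposited MAS5 signal (log axis) of the 9 members on each of 13 arrays, by population, with points for arrays, bars for population means and a dotted line at the floor of 20. Stat4 ran from below the floor in a CD8α cDC array to 2695 in an NK cell array, and Socs1 stayed below 50 on every array.

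Stat2, which joins IRF9 in the complex that binds interferon-stimulated response elements, was highest in pDCs. Its signal was 229 and 240.5 in pDCs, 129 and 142 in CD11b cDCs, 88.8, 137 and 47.9 in B cells, 49.2 and 53.0 in CD8α cDCs, 61.4 and 38.5 in NK cells, and 23.3 and 33.3 in CD8 T cells. Both pDC arrays lay above all others, and both CD8 T cell arrays below all others. pDCs exceeded CD8α cDCs by 2.20 ± 0.41 (log2, SE; adjusted p = 0.00149 by limma), NK cells by 2.27 ± 0.41 (adjusted p = 0.000982), B cells by 1.49 ± 0.37 (adjusted p = 0.00798) and CD8 T cells by 3.08 ± 0.41 (adjusted p = 0.000116). Against CD11b cDCs, the next in order, the difference of 0.79 ± 0.41 did not pass (adjusted p = 0.177), although the second Stat2 probe set gave 0.92 (adjusted p = 0.0168). No neighbouring populations in the order of means differed beyond their spread. CD8α cDCs lay below CD11b cDCs by 1.41 ± 0.41 (log2 difference -1.41, adjusted p = 0.0326). This call held in 18 of 30 alternative settings. Without 1 of the 4 cDC arrays, which leaves a single array on that side, the difference was -1.48 to -1.34 and did not pass (adjusted p = 0.126 to 0.159). The second Stat2 probe set gave the same highest population, at 106 ± 15.7 in pDCs, 55.5 ± 0.47 in CD11b cDCs and 20.5 to 32.6 as means of the others (SD, n = 2 or 3). Among B cells, replicate 2 had the highest Stat2 and also the highest interferon-stimulated genes, with Ifit3 at 1886 against 212 and 128, Ifit1 at 367 against 60.7 and 21.1, and Usp18 at 469 against 87.9 and 32.4. The part of these genes in the Stat2 level of that array was not tested. In pDCs, where Stat2 was highest, Ifit3 was at 65.1 and 34.5 and Ifit1 at 61.7 and 28.9, below both CD11b cDC arrays (574 and 670.4 for Ifit3, 225 and 290 for Ifit1), and Oas2 was likewise lower (26.7 and 17.1 against 390 and 380). Irf7 was higher in pDCs, at 1423 and 1133 against 445 and 523, and Mx1 overlapped, at 402 and 343 against 408 and 322.

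Stat3, the factor of IL-6, IL-10 and Flt3 ligand signalling, was found at a high signal in all populations. It measured 1034 and 1325 in pDCs, 924 and 858 in CD11b cDCs, 713 and 679 in CD8α cDCs, 794 and 651 in NK cells, 397, 875 and 893 in B cells, and 412 and 481 in CD8 T cells. The pDC arrays were above all others, and the CD8 T cell arrays together with B cell replicate 1 were the lowest. Only the pairs of CD8 T cells with pDCs (1.39 ± 0.34, adjusted p = 0.00686) and with CD11b cDCs (1.00 ± 0.34, adjusted p = 0.0316) were called, and no neighbours in the order differed. The F test call (adjusted p = 0.0417) held in 12 of 29 alternative settings and was lost without CD8 T cells (adjusted p = 0.212). B cell replicate 1, which had the lowest Stat3 of its group, also had the highest S100a8 (438, against 27.2 and 128) and Cd3g (52.7, against 8.50 and 8.32) among B cells. From the same marker lists, Cd14, Lyz2, S100a9, C1qb, Cd3d and Cd5 were also highest there. Adgre1 (58.2, against 64.4 and 65.5), Cd3e (8.46, against 2.01 and 9.40) and Cd8b1 (7.62, against 31.7 and 16.0) were not. The B cell markers Cd79a and Ms4a1 were highest there too. The part of these signals in the Stat3 level of that array was not tested. Without that array the F test gave an adjusted p of 0.000536.

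Stat4, the factor of IL-12 and type I interferon signalling in NK and T cells, had the widest range of all members. Its signal was 2224 and 2695 in NK cells, 434, 1784 and 1191 in B cells, 777 and 1133 in CD8 T cells, 246 and 330.5 in CD11b cDCs, 38.1 and 52.5 in pDCs, and 4.68 and 31.8 in CD8α cDCs. Every lymphocyte array lay above every DC array. No pair of the 3 lymphocyte populations passed (NK cells minus B cells 1.33 ± 0.49, adjusted p = 0.0508, and B cells minus CD8 T cells 0.05 ± 0.49, adjusted p = 0.980). The difference of NK from B cells turned on single B cell arrays, at 1.77 (adjusted p = 0.0113) without replicate 2 and 0.75 (adjusted p = 0.0716) without replicate 1, and it was called in 7 of 29 alternative settings. CD8 T cells exceeded CD11b cDCs by 1.72 ± 0.53 (log2 difference of CD11b cDCs -1.72, adjusted p = 0.0211). B cell replicates 2 and 3 and both CD8 T cell arrays formed 1 of the 2 name series of the samples, and all other arrays the other. A covariate for the name series was thus estimated only from B cell replicate 1 against B cell replicates 2 and 3. With this covariate, the difference of CD11b cDCs from CD8 T cells was 0.03 in the other direction (adjusted p = 0.978).

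Within the DCs, Stat4 separated CD11b cDCs from both other subsets. CD11b cDCs were above CD8α cDCs by an estimated 11.3-fold (log2 difference of CD8α cDCs -3.50 ± 0.53, adjusted p = 0.000760) and above pDCs by 6.38-fold (log2 difference of pDCs -2.67 ± 0.53, adjusted p = 0.00284). The former is an underestimate, since CD8α cDC replicate 1 lay below the floor of 20. Both calls held in all 30 alternative settings. Stat4 had only 1 probe set, so the settings with other probe sets could not change its values. pDCs and CD8α cDCs did not differ beyond their spread (0.83 ± 0.53, adjusted p = 0.262). On the 2 CD11b cDC arrays, the NK cell genes Ncr1 (9.20 and 8.24) and Prf1 (16.7 at most) were below 20. Gzma was at 64.7 and 1.82, Klrk1 at 50.5 and 76.1, and Klrd1 at 2339 and 2135. The summed signal of the 5 NK cell markers was 2234 to 2480 in CD11b cDCs, 32713 to 33090 in NK cells, 2642 to 2832 in pDCs and 432 to 486 in CD8α cDCs. Tbx21, the transcription factor T-bet, followed the same split within DCs, at 268 ± 6.64 in CD11b cDCs, 8.21 ± 10.0 in pDCs and 7.08 ± 6.11 in CD8α cDCs (SD, n = 2).

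Stat5a and Stat5b, close relatives that carry signals of IL-2, IL-7, IL-15 and GM-CSF, varied little. Stat5a lay between 56.2 and 125 on all 13 arrays, with the lowest mean in CD8α cDCs (65.0 ± 12.5, SD, n = 2) and the highest in NK cells (115 ± 14.1, n = 2). Its F test did not pass (adjusted p = 0.145), and the pair of these 2 extremes was the only one called (log2 difference -0.83 ± 0.26, adjusted p = 0.0211). Stat5b was at 410.5 and 377 in CD8 T cells, 348 and 274 in CD11b cDCs, 318 and 294 in pDCs, 243 and 265 in NK cells, 172, 269.9 and 242 in B cells, and 166 and 167 in CD8α cDCs. Both CD8 T cell arrays were above all others and both CD8α cDC arrays below all others. CD8α cDCs were lower than CD11b cDCs (-0.89 ± 0.22, adjusted p = 0.0151), pDCs (pDCs minus CD8α cDCs 0.87 ± 0.22, adjusted p = 0.00922), NK cells (-0.61 ± 0.22, adjusted p = 0.0386) and CD8 T cells (-1.24 ± 0.22, adjusted p = 0.000703). No neighbours in the order of Stat5b means differed. The second probe sets of both genes were dim, with no population mean above 45.5, and did not pass the signal filter, so that these calls rest on 1 probe set each. Near-identical stretches of the 2 genes may also share probes, which cannot be told apart here.

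Stat6, the factor of IL-4 and IL-13, was highest in NK cells (1127 and 987). It measured 590.4, 799 and 994 in B cells, 651 and 614 in CD11b cDCs, 616 and 589 in CD8 T cells, 577 and 525 in CD8α cDCs, and 448 and 475 in pDCs, both pDC arrays being the lowest of all. NK cells exceeded pDCs by 1.19 (log2 difference of pDCs -1.19 ± 0.22, adjusted p = 0.00125), CD8α cDCs by 0.94 (-0.94 ± 0.22, adjusted p = 0.00478), CD11b cDCs by 0.74 (-0.74 ± 0.22, adjusted p = 0.0195) and CD8 T cells by 0.81 ± 0.22 (adjusted p = 0.0151). B cells exceeded pDCs (log2 difference of pDCs -0.75 ± 0.20, adjusted p = 0.0119), and no neighbours in the order differed. The second Stat6 probe set was highest in B cells instead, at 207 ± 34.3 (SD, n = 3) against population means of 96.0 to 121. With it, NK cells lay below B cells (-0.80 ± 0.26, adjusted p = 0.0316), the opposite direction to the first (0.44 ± 0.20, adjusted p = 0.108), and pDCs minus NK cells was -0.33 (adjusted p = 0.374). Both the order of NK and B cells and the call of NK cells over pDCs therefore depend on the probe set. Without the NK cell arrays the F test of Stat6 did not pass (adjusted p = 0.0607).

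Socs1, the inhibitor of JAK kinases in interferon and IL-2 family signalling, was dim on every array. The highest signals were 44.4 and 39.3 in CD8 T cells and 40.6 and 28.7 in NK cells, and all 9 arrays of the other populations were at 12.0 or less. Socs1 therefore entered only the fit without a signal filter, in which DCs lay below lymphocytes by -0.61 ± 0.08 (log2 with the floor at 20, adjusted p = 0.000620). All DC and B cell arrays were below the floor, so the size of this difference depends on where the floor is set.

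Socs2, the inhibitor of growth hormone and STAT5 signalling, was most abundant in CD11b cDCs. Its signal was 149 and 145 there, 76.5 and 59.5 in NK cells, 48.9 and 64.5 in CD8α cDCs, 28.7, 12.1 and 6.45 on the B cell arrays, 14.6 and 2.34 on the pDC arrays, and 13.1 and 7.17 for CD8 T cells. The populations fell into 3 steps that did not overlap: CD11b cDCs, then NK cells and CD8α cDCs, then the rest. CD11b cDCs exceeded NK cells by 1.12 ± 0.22 (log2, adjusted p = 0.00193), NK cells and CD8α cDCs did not differ (log2 difference of CD8α cDCs -0.26 ± 0.22, adjusted p = 0.351), and CD8α cDCs exceeded B cells by 1.31 ± 0.20 (adjusted p = 0.000320). All pDC and CD8 T cell arrays were below the floor of 20, so that CD11b cDCs were at least 7.35-fold higher than each of them (log2 difference of pDCs -2.88 ± 0.22, adjusted p = 2.56e-06). A second probe set gave closely the same pattern, with population means of 162 ± 7.74 in CD11b cDCs, 59.3 ± 8.68 in CD8α cDCs, 54.1 ± 8.19 in NK cells and at most 11.2 elsewhere (SD, n = 2). The other 4 Socs2 probe sets did not pass the filter.

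Socs3, the inhibitor of gp130 cytokine receptors such as that of IL-6, differed most often between populations. It was at 1492 and 1177 on the NK cell arrays, 800.3 and 849 on the CD8 T cell arrays, 393 and 558 in pDCs, 174 and 161 in CD11b cDCs, 244, 74.2 and 115 in B cells, and 34.2 and 58.5 in CD8α cDCs. NK cells, CD8 T cells and pDCs lay above all other arrays, and the CD8α cDC arrays below all of them. In this order, pDCs exceeded CD11b cDCs by 1.48 ± 0.46 (log2, adjusted p = 0.0306) and B cells exceeded CD8α cDCs by 1.52 (log2 difference of CD8α cDCs -1.52 ± 0.42, adjusted p = 0.0110), while the other neighbours did not differ beyond their spread. The call of pDCs over CD11b cDCs held in 15 of 30 alternative settings and that of B cells over CD8α cDCs in 24 of 29, the latter being at -0.85 (adjusted p = 0.138) with the second Socs3 probe set. The distance between NK cells and CD8α cDCs, 29.6-fold (log2 difference -4.89 ± 0.46, adjusted p = 6.91e-06), was the widest. All 3 Socs3 probe sets passed the filter and placed CD8α cDCs lowest. The one with the second highest mean was highest in CD8 T cells (415 ± 45.1) rather than in NK cells (345 ± 46.1, SD, n = 2), so which of these is higher depends on the probe set. Both the set used and this second one carry the suffix of sets in which some probes can also match other transcripts. The third set, without that suffix, was highest in NK cells (162 ± 7.77, against 130 ± 22.5 in CD8 T cells, SD, n = 2). Among B cells, replicate 1, with the marker signals given above for Stat3, had the highest Socs3.

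**Figure D2:**
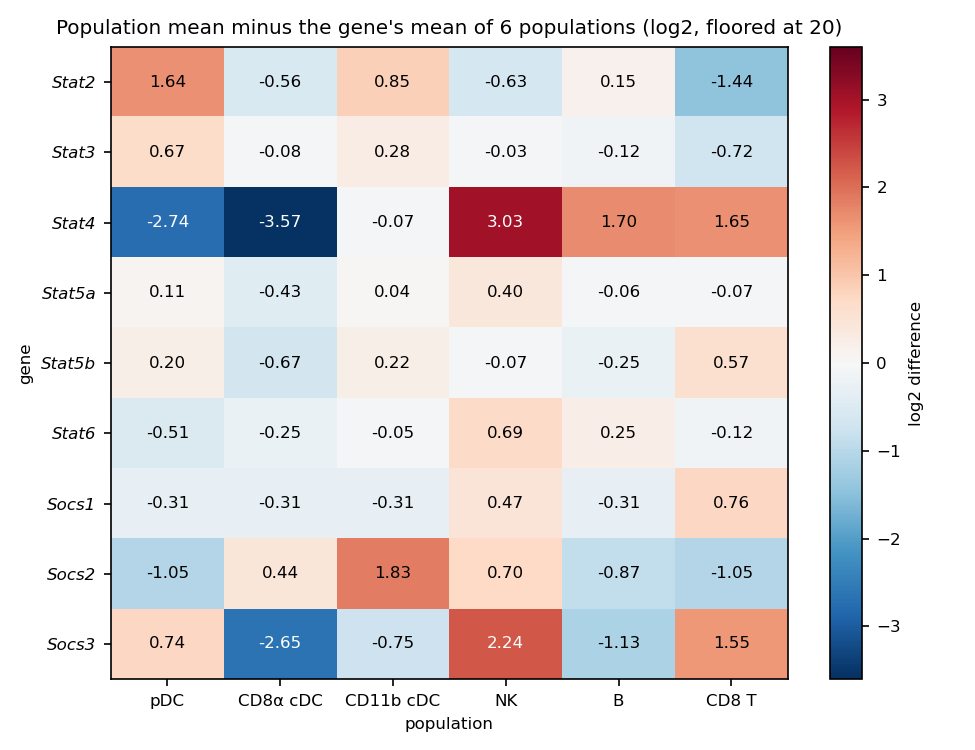
Mean log2 signal of each population minus the mean of the 6 population means of that gene, for the 9 members (floored at 20; red above, blue below the gene's own mean). CD8α cDCs have the lowest value for Stat4, Stat5a, Stat5b and Socs3, pDCs the highest for Stat2 and Stat3, and NK cells the highest for Stat4, Stat5a, Stat6 and Socs3.

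The comparison of the cDC subsets showed the members on 1 side, which the other SOCS box genes, described further on, did not share as a group. CD8α cDCs were lower than CD11b cDCs in 5 of 8 members, Stat2, Stat4, Stat5b, Socs2 and Socs3, and higher in 0, whereas 10.6% of all genes tested were lower and 8.96% higher (19.5% either way). The other 3 members, Stat3 (-0.36 ± 0.34), Stat5a (-0.47 ± 0.26) and Stat6 (-0.20 ± 0.22), had estimates below 0 that did not pass. The median difference was -1.14 over the 8 members and 0 over all genes. The log2 differences of the 5 were -3.50 for Stat4, -1.90 ± 0.46 for Socs3 (adjusted p = 0.0134), -1.41 for Stat2, -1.39 ± 0.22 for Socs2 (adjusted p = 0.00106) and -0.89 for Stat5b. Leaving out 1 cDC array leaves that subset with a single array, whose spread is then taken from the other populations, and gave 2 calls without replicate 1 of either subset and 3 without replicate 2. The differences themselves stayed between -3.83 and -3.16 for Stat4, -2.29 and -1.51 for Socs3, -1.59 and -1.19 for Socs2, -1.48 and -1.34 for Stat2, and -1.06 and -0.72 for Stat5b. CD11b cDC replicate 1 was scanned on another day than the other DC arrays, and with scan day as a block within the DCs the count was 3, Stat2, Stat4 and Socs2, while Socs3 was at -1.85 (adjusted p = 0.118) and Stat5b at -0.72 (adjusted p = 0.147). The sum of 6 monocyte, macrophage and neutrophil markers was higher in CD11b cDCs (3265 to 4211) than in CD8α cDCs (1176 to 1210). This came mainly through Adgre1 (1300 and 1505 against 42.6 and 51.5) and Lyz2 (1757 and 2500 against 1029 and 1045). C1qb (mean 123 against 14.7) and Cd14 (mean 68.9 against 42.9) were also higher in CD11b cDCs. S100a8 (mean 12.3 against 25.5) and S100a9 (mean 3.47 against 25.8) went the other way. The part of these markers in the differences of the members was not tested.

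pDCs differed from the mean of both cDC subsets in 3 of 8 members, against 36.7% of all genes (17.7% higher and 19.1% lower in pDCs). Stat2 was higher in pDCs by 1.50 ± 0.35 (log2, adjusted p = 0.00625) and Socs3 by 2.44 ± 0.39 (adjusted p = 0.000580). Socs2 was lower by at least 4.54-fold (-2.18 ± 0.19, adjusted p = 6.07e-06). The direction of each held against CD8α and CD11b cDCs taken singly, although Stat2 did not pass against CD11b cDCs alone. Without B cell replicate 1, which lowers the spread that all populations share, 6 members were called, the added ones being Stat3 (0.57, adjusted p = 0.0112), Stat4 (-0.92, adjusted p = 0.0178) and Stat5b (0.43, adjusted p = 0.0288).

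DCs differed from lymphocytes in 6 of 8 members, against 63.6% of all genes (31.3% higher and 32.3% lower in DCs), and the calls went both ways. Stat2 (1.28 ± 0.23, adjusted p = 0.000564), Stat3 (0.58 ± 0.19, adjusted p = 0.0207) and Socs2 (0.81 ± 0.12, adjusted p = 0.000203) were higher in DCs. Stat4 (-4.25 ± 0.30, adjusted p = 4.63e-07), Stat6 (-0.54 ± 0.12, adjusted p = 0.00303) and Socs3 (-1.77 ± 0.26, adjusted p = 0.000130) were lower. Only for Stat4 did the arrays of DCs and lymphocytes not overlap, so the other 5 are differences of averages. Socs2, for example, was higher in NK cells than in pDCs, and Socs3 was higher in pDCs than in B cells. Stat6 was no longer called without the NK cell arrays (-0.33, adjusted p = 0.0609), and Stat3 was no longer called without the CD8 T cell arrays (0.36, adjusted p = 0.175) and held its call in 21 of 29 alternative settings. The third Stat3 probe set, highest in NK cells as given above, was not tested by itself. With the name series as a covariate, Stat6 was at -0.21 (adjusted p = 0.237) and Stat3 at 1.22 (adjusted p = 9.71e-05). That covariate was estimated from B cell replicate 1 against B cell replicates 2 and 3 alone. Without B cell replicate 2 all 6 calls remained. Stat2, Stat4 and Socs3 kept their direction and call in all 29 alternative settings, of which those with other probe sets could not change the Stat4 values.

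**Figure D3:**
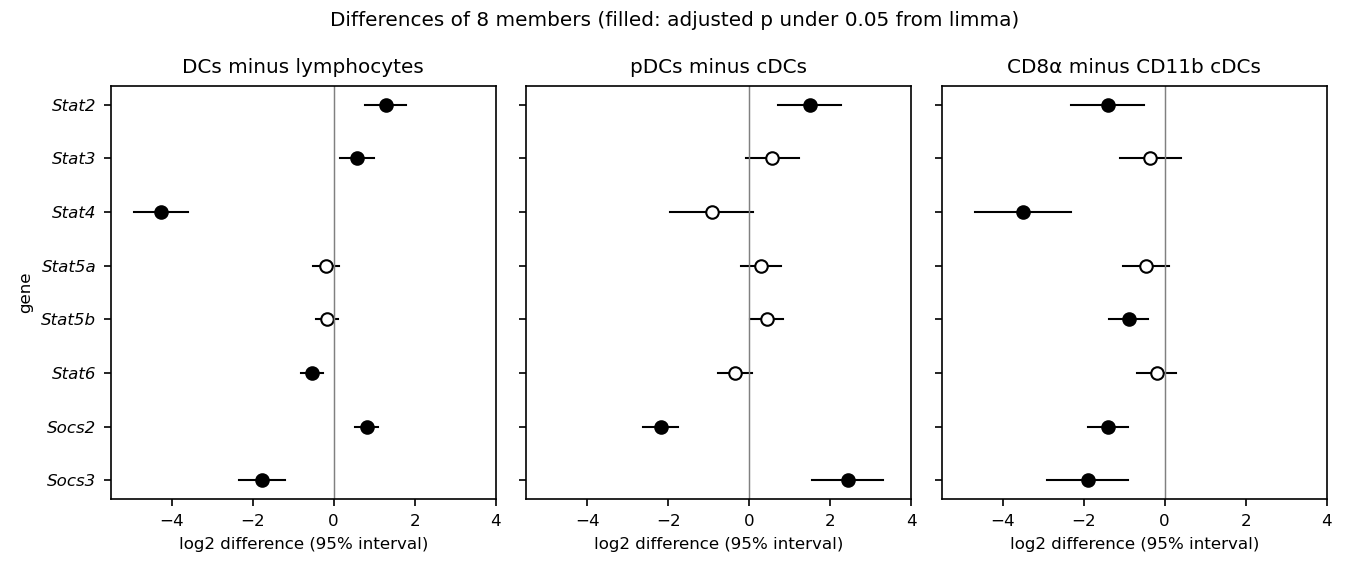
Log2 differences of the 8 members tested (points, filled where limma's adjusted p was under 0.05) with 95% intervals, for DCs minus lymphocytes, pDCs minus both cDC subsets and CD8α minus CD11b cDCs. All 8 estimates of the third comparison lie below 0, while both signs occur in the other comparisons.

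**Figure D4:**
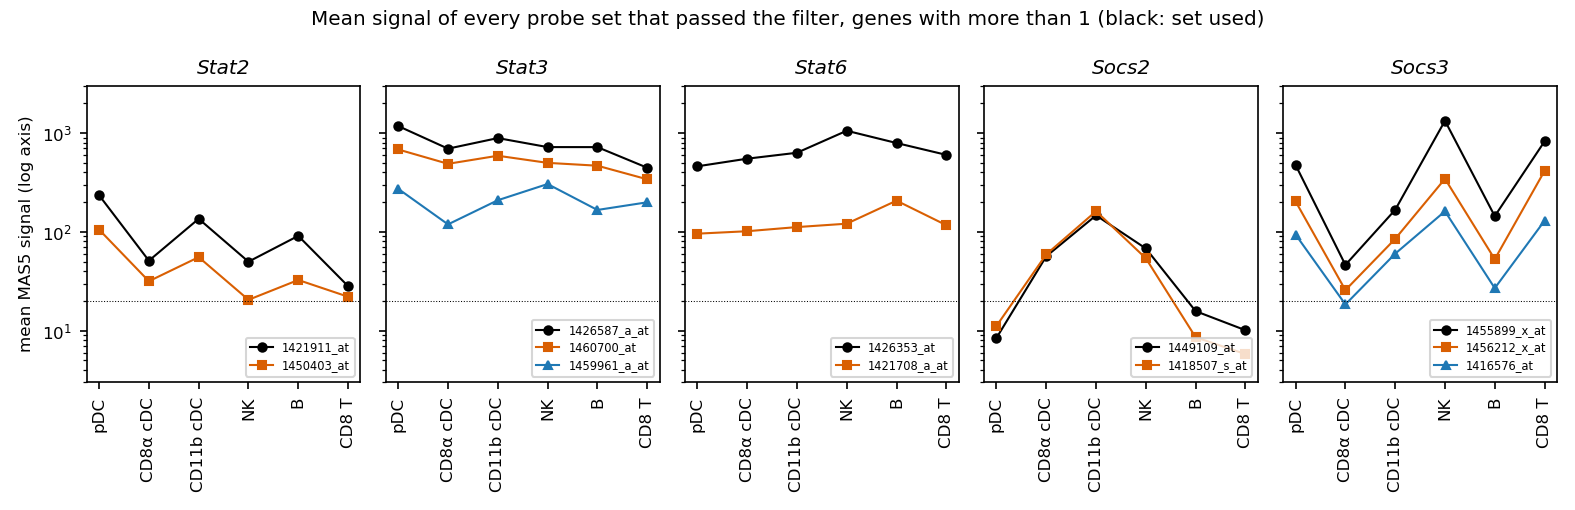
Mean signal (log axis) of every probe set that passed the filter, by population, for the 5 members with more than 1 such set (black: the set used). The lines run broadly in parallel for Stat2 and Socs2, where only lower populations change places (NK and CD8 T cells for Stat2, NK cells and CD8α cDCs for Socs2). They cross more clearly for Stat6 (highest in NK cells or in B cells), for the third Stat3 set (r = 0.321 to the set used over 6 means) and for Socs3 between NK and CD8 T cells.

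The 4 JAK kinases, which act just upstream of the STATs, were all called by the F test, as were 82.8% of all genes tested. Jak1, shared by interferon, gp130 and common gamma chain receptors, was at 2948 and 5522 on the NK cell arrays, 2998 and 2733 on those of CD8 T cells, 1462 to 1700 in B cells and 508 to 904 on the 6 DC arrays. DCs were lower by 3.98-fold (log2 -1.99 ± 0.14, adjusted p = 5.02e-07), with no overlap between DC and lymphocyte arrays, as for Stat4. Jak2, the kinase of the GM-CSF receptor, went the other way. It was at 2415 and 2437 in CD11b cDCs, 1311 and 1434 in CD8α cDCs, 929 and 1132 in pDCs, and 429 to 808 in lymphocytes, again with no overlap (1.30 ± 0.15, adjusted p = 1.84e-05). CD8α cDCs were lower in Jak2 than CD11b cDCs (-0.82 ± 0.26, adjusted p = 0.0480). Jak3, the partner of the common gamma chain, was at 246 and 302 on the NK cell arrays, 242 and 211 on the CD8 T cell arrays, 128 and 112 in pDCs, 112 and 103 in CD11b cDCs, 33.4 to 117 in B cells, and 44.3 and 53.1 in CD8α cDCs. Tyk2, the kinase of the type I interferon and IL-12 receptors, was higher in CD8α cDCs (888 and 750) than in CD11b cDCs (512 and 459; 0.75 ± 0.21, adjusted p = 0.0269), against the direction of the members called there.

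**Figure D5:**
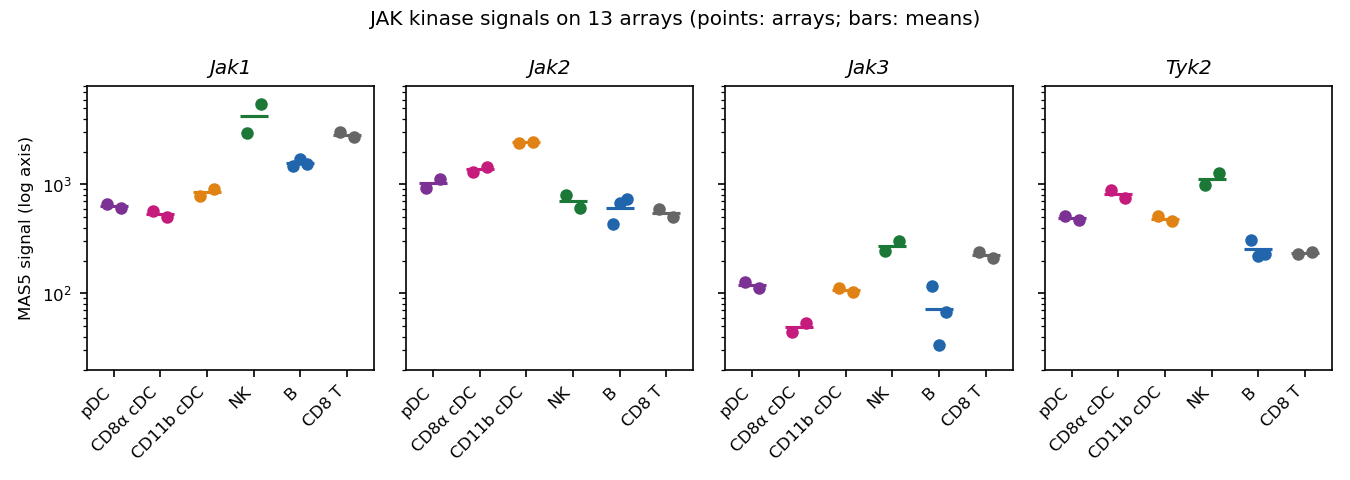
MAS5 signal (log axis) of the 4 JAK kinases on each of 13 arrays, by population (points: arrays, bars: means). Jak1 lies higher on all 7 lymphocyte arrays than on the 6 DC arrays and Jak2 higher on all 6 DC arrays.

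Of 35 receptor genes listed for the pathway, 31 had a probe set and 22 were tested. All 22 were called by the F test (82.8% over all genes). In DCs 12 were higher and 6 lower than in lymphocytes (31.3% and 32.3% over all genes), with a median of 0.53 against -0.02 over all genes. In CD8α cDCs 5 were lower and 0 higher than in CD11b cDCs (10.6% and 8.96%). The 4 with the widest range were Il7r, Csf2rb, Csf2rb2 and Lifr. Il7r, the IL-7 receptor chain upstream of STAT5, was at 4647 ± 244 in CD8 T cells, 2567 ± 641 in pDCs, 532 ± 55.1 in NK cells, 155 ± 4.75 in CD11b cDCs, 59.0 ± 8.86 in B cells and 20.8 ± 4.31 in CD8α cDCs (SD, n = 2 or 3). Csf2rb, the common beta chain of the IL-3, IL-5 and GM-CSF receptors, was at 2144 ± 82.2 in pDCs, 1371 ± 19.9 in CD11b cDCs and 1217 ± 73.7 in CD8α cDCs, and at most at 107 in lymphocytes (population mean), and it was not called between pDCs and cDCs or between the cDC subsets. Its paralogue Csf2rb2 was at 2718 ± 84.4 in pDCs and 321 ± 8.93 and 311 ± 38.0 in CD8α and CD11b cDCs, and the near-identity of the 2 genes leaves shared probes possible. Lifr, the LIF receptor that signals to STAT3, was at 1597 ± 60.5 in pDCs, 69.9 ± 15.1 in CD11b cDCs and at most 16.6 elsewhere.

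Of the other SOCS box genes, 6 were tested and 6 called by the F test (82.8% over all genes), 2 higher and 4 lower in DCs (31.3% and 32.3%). In CD8α cDCs 0 were lower and 0 higher than in CD11b cDCs (10.6% and 8.96% over all genes). Their median log2 difference of CD8α from CD11b cDCs was 0.38, against 0 over all genes, and only Asb2 had an estimate below 0 (-0.90 ± 0.62). Cish, a STAT5 target that blocks STAT5 docking, was at 108 ± 33.8 in CD8 T cells and 74.1 ± 5.61 in NK cells, against 36.1 ± 6.79 in B cells and 11.5 to 27.5 as means of the DC subsets (log2 -1.47 ± 0.14, adjusted p = 5.27e-06). The 2 populations with the highest Cish were also those in which Socs1 and Socs3 were highest. Asb2, a ubiquitin ligase subunit with a SOCS box, was a cDC gene, at 4369 ± 244 in CD11b cDCs and 2347 ± 226 in CD8α cDCs and 59.8 ± 17.1 in pDCs (pDCs minus cDCs -5.77 ± 0.54, adjusted p = 8.85e-06). Socs4 was highest in CD8 T cells (419 ± 73.3) and Socs6 highest in pDCs (127 ± 9.79), and DCs were lower in Socs4 (-0.70 ± 0.16, adjusted p = 0.00349) and higher in Socs6 (0.83 ± 0.13, adjusted p = 0.000285).

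Of 12 other inhibitors of the pathway, all were tested and called by the F test (82.8% over all genes). In DCs 3 were higher and 5 lower (31.3% and 32.3%), and in CD8α cDCs 2 were lower and 0 higher than in CD11b cDCs (10.6% and 8.96%). Ptpn6, the phosphatase SHP-1 that acts on JAKs, had the widest range, at 4320 ± 787 in pDCs, 4288 ± 1.61 in CD11b cDCs, 2857 ± 1661 in B cells, 1417 ± 129 in CD8α cDCs, 1310 ± 176 in CD8 T cells and 636 ± 4.39 in NK cells. CD8α cDCs were lower than CD11b cDCs by -1.60 ± 0.38 (adjusted p = 0.0131). Usp18, an interferon-induced inhibitor of the type I interferon receptor that works through STAT2, was at 667 ± 83.1 in CD11b cDCs, 540 ± 170 in pDCs and 281 ± 15.5 in CD8α cDCs. It was at 278 ± 38.0 in CD8 T cells, 196 ± 238 in B cells and 110 ± 4.13 in NK cells. On average DCs exceeded lymphocytes by 1.63 ± 0.49 (adjusted p = 0.0138), but their arrays overlapped. Sh2b3, the adaptor LNK that restrains JAK2, was at 796 ± 74.6 in B cells, 336 to 471 as means of DCs and NK cells, and 156 ± 12.0 in CD8 T cells.

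Among 21 partners and targets of STAT factors that were tested, 20 were called by the F test (82.8% over all genes), and 13 were lower and 3 higher in DCs (32.3% and 31.3%), with a median of -1.64 against -0.02 over all genes. The 4 with the widest range were STAT4 targets, and NK cells led in each: Ifng was at 3219 ± 710, Il18r1 at 4052 ± 742, Il18rap at 1912 ± 10.6 and Tbx21 at 3120 ± 334 (SD, n = 2). CD8 T cells followed at 159 ± 52.0, 989 ± 162, 244 ± 14.1 and 449 ± 44.0 in the same order. B cells, in which Stat4 did not differ from that of CD8 T cells beyond its spread, had population means of 21.8 to 47.2 for these 4 genes. In CD11b cDCs Tbx21 alone was above 20, with Ifng, Il18r1 and Il18rap at 15.0 to 17.5. The list was written with earlier results of these samples known.

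The genes most like each member over the 6 population means, among 7010 genes with a range of at least 1, are given as a description: with 6 means many genes reach a high r. For Stat2 they were Lamp2 (r = 0.978), Carmil1 (0.973) and Slc43a3 (0.973), with 54 genes at r of 0.9 or more. For Stat3 they were Inppl1 (0.985), Ecpas (0.979) and again Lamp2 (0.973), and Stat2 and Stat3 had r = 0.939 to each other. For Stat4 they were Pms2 (0.991), Clcf1 (0.989) and Zw10 (0.987), with 130 genes at 0.9 or more, and for Stat6 Ssh1 (0.986), Gon4l (0.985) and Rdm1 (0.984). For Stat5b they were Slc25a40 (0.984), Klhl2 (0.972) and Mta2 (0.970). For Socs2 they were Chn2 (0.982), Oma1 (0.981) and Sla (0.971), Chn2 being at the floor in pDCs, B cells and CD8 T cells. For Socs3 they were Zfp574 (0.997), Selenop (0.990) and Spn (0.988). Socs2 and Socs3 had r = -0.218 to each other.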

How the data were processed

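The 13 Affymetrix arrays were deposited as linear intensity values without a floor, which the authors obtained with MAS5 after amplifying the RNA in successive rounds and scaling each array to a target of 100. Between 49.1 and 58.3% of the values of an array lay below 20, and the number of arrays limits the precision. Of 45101 probe sets, 34958 were annotated to 1 gene, and the set with the highest mean stood for its gene. Values were floored at 20 and log2 transformed, so a fold against a population at the floor is a lower bound. After a filter at 50 (all arrays of some population), 9380 genes entered 1 linear model with a mean for each of 6 populations (limma 3.58.1, R 4.3.3, 7 residual degrees of freedom). It gave the F test, 15 pairs and 3 comparisons, two-sided, with Benjamini-Hochberg adjustment over all genes and a threshold of 0.05. All adjusted p-values are from limma, and the model was tested on simulated data.

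The members and lists were chosen with earlier results of these data known. Named genes were the members, the 4 JAKs, the 4 called genes of each other list with the widest range, and the 3 genes most like each member whose range was at least 1. Ifit1, Ifit3, Irf7, Mx1, Oas2 and single marker genes were added to these with their values known. The p-values measure the spread between samples, which may be technical. Same-numbered arrays deviated together by r = -0.199 to 0.184, above 0.1 in 4 of 15 pairs of populations, and although the study sorted the DC and NK cell replicates in separate experiments, no source says that a number marks the same experiment in several populations, so the design was left unpaired. Alternatives changed 1 choice at a time: normalization, floor, filter, variance model, probe set, covariates for replicate number, name series and scan day, and each array left out. B cells were the only population with arrays of both name series, so that covariate was estimated from them alone. Leaving out both NK or both CD8 T cell arrays was added after seeing the data.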

Additional observations from a re-analysis of the deposited data

How the results depend on the processing

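Counts of members called changed mainly between the cDC subsets: 5 became 3 with no floor, with no filter and with scan day as a fixed block within the DCs. Without 1 array it ranged from 2 to 5. In pDCs against cDCs, 3 became 6 with the 2 name series of the samples as a covariate, and ranged from 2 (without pDC replicate 2) to 6 (without B cell replicate 1). Over all other settings the counts of the F test (6 to 7 without 1 array), of DCs against lymphocytes (5 to 7) and of pairs (46 to 69) moved by less than 1.5 times. Of 1433 values of single members under alternatives, 1294 kept direction and call, 107 lost the call, 20 gained it and 12 changed direction. Stat5a in DCs against lymphocytes turned to 0.0117 with invariant rank normalization, 0.12 with the mean of all probe sets and 0.42 with the second probe set, and Stat5b to 0.15 with the covariate for name series and 0.0712 without CD8 T cells. With the second probe set, Stat5a in CD8α cDCs minus NK cells became 0.27, Stat5b in pDCs minus cDCs -0.35 and in CD8α cDCs minus B cells 0.0208, and Stat6 in NK minus B cells -0.80 (-0.18 with the mean of all probe sets). Stat4 in CD11b cDCs minus CD8 T cells became 0.0300 with the covariate, and Stat5a in pDCs minus cDCs ranged from -0.0275 (without pDC replicate 1) to 0.634 (without replicate 2). The causes were not tested. With the replicate number as a block, the counts were 7, 6, 3 and 5 for the F test and the 3 comparisons, as without it. Over all genes, CD8α against CD11b cDCs gave 1830 calls, 1262 with no floor, and 1115, 1128 and 1168 without CD8α replicate 2, CD11b replicate 1 and CD11b replicate 2. Scan day as a fixed block could not be fitted for DCs against lymphocytes. Signals near the floor limit Socs1, Socs2 and the low Stat4 values.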
